A study of Homo sapiens with 4 samples.

Results

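The genes described here encode the enzymes and transporters of glycolysis and the genes that cells switch on when oxygen is short, followed probe by probe in OE33 cells given miR-223. The members are 39 named genes, taken as every probe that carries one of their names in the deposited bead signals, with JMJD1A read as the older name of KDM3A. They hold 69 of the 47321 probes on the array, and every one of the 39 genes has at least 1 probe. OE33 is an established line of human esophageal adenocarcinoma. The tested arrays came from cells transfected with 10 nM of a pre-miR precursor of hsa-miR-223, and the control arrays from cells transfected with 10 nM of a negative control pre-miR. All cells were harvested 24 h after transfection, with 2 Illumina HumanHT-12 v4 bead arrays in each group. The design text speaks of biological replicate experiments, but no label ties arrays of the same number to 1 experiment. The p-values measure the spread between these arrays only. No label gives the oxygen or glucose supply of the cultures.

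Glycolysis splits glucose into pyruvate in the cytosol, and lactate dehydrogenase can turn that pyruvate into lactate, which leaves the cell through a carrier. The transcription factor HIF-1, of which HIF1A encodes the oxygen-regulated subunit, is held low by prolyl hydroxylases while oxygen is present. When oxygen falls, it binds short DNA elements and raises many glycolytic genes together with genes for blood vessel growth, pH control and mitophagy. HIF1A itself is controlled mainly through the stability of its protein, which a messenger RNA array does not measure. Many tumour cells run glycolysis at a high rate also with oxygen at hand.

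The transfected agent is shown first because the 2 groups compared below are cells given it and cells given the negative control. The labels name hsa-miR-223 and no arm, so both mature arms of MIR223 (GRCh38.p14, chromosome X, plus strand, RefSeq) are given, with the seed, bases 2 to 8, in capitals.
hsa-miR-223-3p, chrX:66018937-66018958: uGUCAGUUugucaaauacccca
hsa-miR-223-5p, chrX:66018895-66018916: cGUGUAUUugacaagcugaguu

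Levels are given as log2 intensity after background correction and quantile normalization, and differences are miR-223 minus control on that scale. Levels of different probes are not comparable with each other, since each probe has its own brightness. Of the 69 probes, 51 were detected above the negative control beads on all 4 arrays (detection p under 0.05), 4 on 1 array and 14 on none. A probe was tested when at least 2 arrays detected it, which left these 51 probes of 34 genes. The number of probes detected per array lay between 18036 and 18916, and a signal of a tested member probe rested on 10 to 36 beads, with a bead standard error of 2.75% to 14.6% of the signal. All 5 epithelial markers looked at (EPCAM, KRT8, KRT18, KRT19 and CDH1) were detected on 4 arrays. Of 5 columnar and intestinal markers AGR2 was detected on 4 arrays and KRT20, CDX1, VIL1 and TFF3 on none. Of 3 squamous markers KRT14 was detected on 4 arrays, and KRT5 and TP63 on none. Of the leukocyte markers given here, CD14 was detected on 4 arrays, and PTPRC and CD3E on none. The 3 endothelial markers were detected on none, and no fibroblast marker on more than 1. No marker passed limma, and CD14 stood at 0.38; its part in the results below was not tested. With 2 arrays a group, precision is low throughout.

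No gene of glycolysis or of the hypoxia response passed the test between miR-223 and control cells. With limma's moderated test, 0 of the 51 tested member probes had an adjusted p under 0.05, and over all 18629 tested probes the share was 0%. At an unadjusted p under 0.05 the count was again 0 of 51, where the share over all tested probes was 5.46%. The differences ran from -0.49 to 0.44, so that the widest was 1.40-fold and none reached 1.5-fold. They were split evenly, 25 positive and 26 negative, with a median of -0.0013 against 0.0031 over all tested probes. The 95% interval of a member's difference reached 0.49 to 1.14 to either side, with a median of 0.54. Smaller changes were therefore not detectable with these arrays even before adjustment. After adjustment larger ones were missed too: over all tested probes, differences from -1.69 to 1.36 did not pass. The count at an unadjusted p under 0.05 depends on the processing. It was 7 of 51 without background correction, with the share over all probes at 5.53%. With a robust variance trend it was 5 of 51, with that share at 5.06%. It stayed at 0 of 51 with median scaling (4.11% over all probes) and with cyclic loess (5.45%). The adjusted count stayed at 0 in every setting run.

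**Figure D1:**
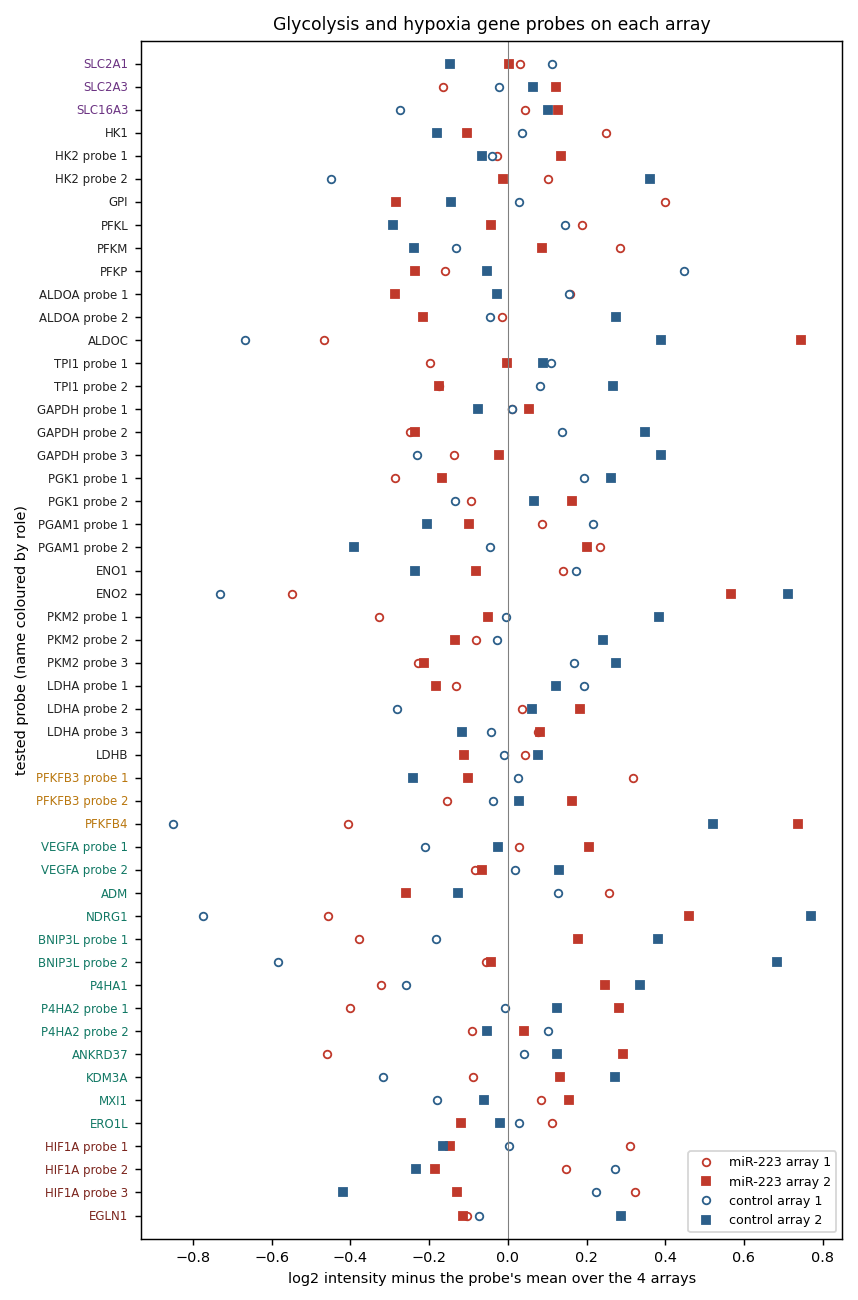
Log2 intensity of each of the 51 tested probes on the 4 arrays, minus the probe's mean over the arrays; red marks miR-223 and blue control, open circles array 1 and filled squares array 2, and probes of a gene run from the brightest down. ENO2, PFKFB4, NDRG1 and ALDOC have the widest spread, and there both filled squares lie right of both open circles.

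Both miR-223 arrays lay above both control arrays for 7 of the 51 probes, or below them for 11. Over all tested probes the corresponding shares were 16.4% above and 16.8% below. The counts of the members are therefore near those of the array as a whole.

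Glucose enters through the transporters SLC2A1 and SLC2A3, and lactate leaves through SLC16A3. SLC2A1 was at 11.26 and 11.23 on the miR-223 arrays, against 11.34 and 11.08 on the control arrays. SLC2A3 was at 10.27 and 10.56 on the miR-223 arrays, against 10.41 and 10.50 on the control arrays. SLC16A3 was at 12.31 and 12.40 on the miR-223 arrays, against 11.99 and 12.37 on the control arrays. The groups overlapped for all 3 transporters, and their differences were 0.034 ± 0.22, -0.041 ± 0.23 and 0.17 ± 0.23 (SE).

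The glycolytic enzymes held 28 tested probes, 14 with a positive and 14 with a negative difference and a median of 0.0048. This median lay between -0.13 and -0.025 when 1 array was left out, and with all 4 arrays it was -0.0091 without background correction, so its sign was not settled. The largest positive differences belonged to PFKM, a phosphofructokinase subunit, and to 1 probe of PGAM1, a phosphoglycerate mutase. The largest negative ones belonged to GAPDH, PGK1, PKM2, PFKP, TPI1 and LDHA. They are given below in the order of the pathway.

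Hexokinases HK1 and HK2 trap glucose by adding a phosphate. The detected probe of HK1 stood at 0.14 ± 0.24 (SE). HK2 had 2 probes at 0.11 ± 0.22 and 0.089 ± 0.29 (SE). GPI, the phosphoglucose isomerase, stood at 0.12 ± 0.28 (SE), with overlapping groups throughout except for the brighter HK2 probe.

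Phosphofructokinase, the committed step, is built from the subunits PFKM, PFKL and PFKP, which differed in sign. PFKM was at 10.01 and 9.82 on the miR-223 arrays, against 9.60 and 9.49 on the control arrays. Both miR-223 arrays were the higher ones, by 0.37 ± 0.22 (SE; limma adjusted p = 0.963). PFKP was at 12.34 and 12.27 on the miR-223 arrays, against 12.95 and 12.45 on the control arrays. Here both miR-223 arrays were the lower ones, at -0.40 ± 0.25 (SE; limma adjusted p = 0.967), and the value was -0.15 without control replicate 1, the brightest array, and -0.64 without control replicate 2. PFKL stood at 0.15 ± 0.25 (SE), with overlapping groups.

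Aldolase and triose phosphate isomerase make and interconvert the triose phosphates. ALDOA had 2 detected probes. The brighter stood at -0.13 ± 0.24 (SE). The other was at 12.71 and 12.51 on the miR-223 arrays, against 12.68 and 13.00 on the control arrays, a difference of -0.23 ± 0.23 (SE), which was -0.071 without control replicate 2, -0.39 without control replicate 1 and -0.13 without miR-223 replicate 2. The groups overlapped on both ALDOA probes. Of the TPI1 probes, ILMN_2181191 was at 12.78 and 12.78 on the miR-223 arrays, against 13.04 and 13.23 on the control arrays. Its difference was -0.35 ± 0.22 (SE; limma adjusted p = 0.967), and the second probe stood at -0.20 ± 0.22 (SE). On both TPI1 probes the miR-223 arrays were below the control arrays. ALDOC, the aldolase of brain, is taken up with the genes of wide spread below.

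GAPDH, which many laboratories use as a reference gene, had 3 probes whose differences were unequal in size and sign. ILMN_1343295 was at 13.60 and 13.61 on the miR-223 arrays, against 13.98 and 14.20 on the control arrays. At -0.49 ± 0.22 (SE) it had the lowest p of all members, with a limma adjusted p of 0.914, and both miR-223 arrays were below both control arrays. ILMN_2038778 was at 14.41 and 14.45 on the miR-223 arrays, against 14.41 and 14.32 on the control arrays, a difference of 0.065 ± 0.21 (SE). ILMN_1802252 was at 12.90 and 13.02 on the miR-223 arrays, against 12.81 and 13.43 on the control arrays, a difference of -0.16 ± 0.26 (SE). So 1 GAPDH probe lay lower with miR-223, 1 just higher and 1 overlapped. The authors' deposited table, which merges the probes of a gene, gives GAPDH a log2 fold change of -0.16.

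PGK1, phosphoglycerate kinase, makes the first ATP of the pathway. On ILMN_1755749 it was at 12.30 and 12.42 on the miR-223 arrays, against 12.78 and 12.85 on the control arrays. The groups did not overlap, and the difference was -0.46 ± 0.22 (SE; limma adjusted p = 0.929). On ILMN_2216852 PGK1 was at 10.38 and 10.63 on the miR-223 arrays, against 10.34 and 10.54 on the control arrays. That probe stood at 0.068 ± 0.23 (SE) and its groups overlapped. The authors' deposited table has PGK1 at -0.35. On the authors' values per probe, ILMN_1755749 stood at -0.45 and ILMN_2216852 at 0.064, so the merged value is not a plain mean of these differences.

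PGAM1 and the enolases carry the next steps. On ILMN_1661366 PGAM1 was at 11.13 and 11.09 on the miR-223 arrays, against 10.85 and 10.50 on the control arrays. It was the highest member difference, at 0.44 ± 0.23 (SE; limma adjusted p = 0.937), with no overlap, and 0.26 without control replicate 2. The other probe, ILMN_2112417, was at 12.01 and 11.82 on the miR-223 arrays, against 12.14 and 11.72 on the control arrays, and its difference was -0.011 ± 0.24 (SE). PGAM1 has the close copy PGAM4, so its probes are uncertain. ENO1, the general enolase, stood at 0.060 ± 0.24 (SE) with overlapping groups.

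Pyruvate kinase, listed under its older name PKM2, had 3 probes with differences of 1 sign. The name is that of the gene and does not say which splice form a probe reads. ILMN_1672650 was at 8.42 and 8.43 on the miR-223 arrays, against 8.81 and 8.92 on the control arrays, a difference of -0.44 ± 0.22 (SE; limma adjusted p = 0.929). ILMN_2366634 was at 10.62 and 10.89 on the miR-223 arrays, against 10.94 and 11.33 on the control arrays, a difference of -0.38 ± 0.24 (SE; limma adjusted p = 0.972), which was -0.18 without control replicate 2, -0.57 without control replicate 1 and -0.24 without miR-223 replicate 1. ILMN_1775327 was at 9.45 and 9.40 on the miR-223 arrays, against 9.51 and 9.78 on the control arrays, a difference of -0.22 ± 0.22 (SE). On all 3 probes both miR-223 arrays were below both control arrays, and none passed the test. The authors' deposited table has PKM2 at -0.32.

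Lactate dehydrogenase is built from LDHA and LDHB subunits. On ILMN_3249748 LDHA was at 14.16 and 14.11 on the miR-223 arrays, against 14.48 and 14.41 on the control arrays, a difference of -0.32 ± 0.21 (SE; limma adjusted p = 0.987). On ILMN_1807106 LDHA was at 13.83 and 13.98 on the miR-223 arrays, against 13.51 and 13.86 on the control arrays, a difference of 0.22 ± 0.23 (SE). That value was 0.048 without control replicate 1, 0.39 without control replicate 2 and 0.15 without miR-223 replicate 2. The dim ILMN_3251145 was at 6.63 and 6.63 on the miR-223 arrays, against 6.51 and 6.43 on the control arrays, a difference of 0.16 ± 0.21 (SE). The first LDHA probe thus lay lower with no overlap, the second overlapped and the dim one lay higher with no overlap. LDHB stood at -0.067 ± 0.22 (SE).

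**Figure D2:**
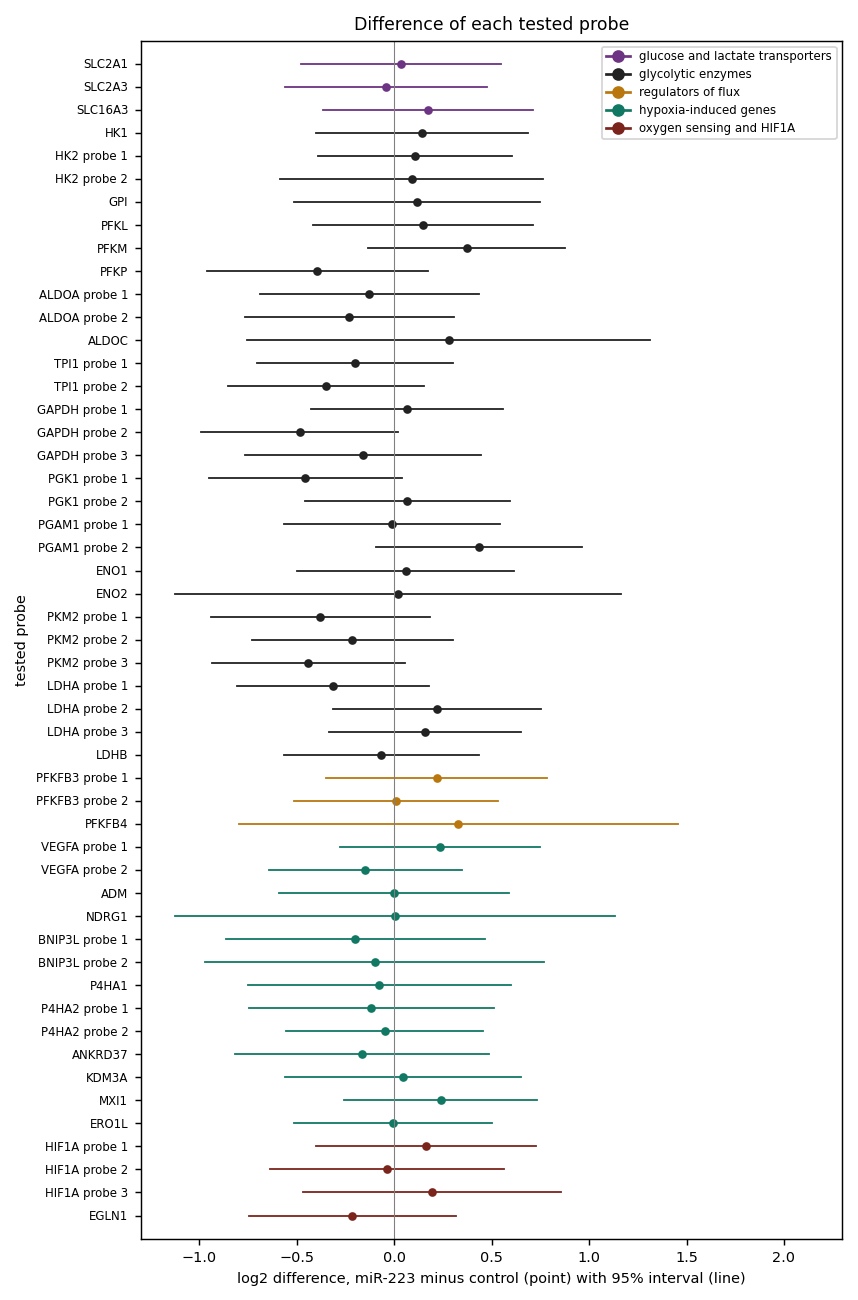
Log2 difference of each of the 51 tested probes, miR-223 minus control, as a point with its 95% interval from limma, coloured by the role of the gene. Every interval holds 0, and the widest belong to ENO2, NDRG1, PFKFB4 and ALDOC.

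Flux through the pathway is tuned by PFKFB3 and PFKFB4, which set the level of an activator of phosphofructokinase, and by PDK1. PDK1 is a pyruvate dehydrogenase kinase, which restrains the use of pyruvate inside mitochondria. The PFKFB3 probes stood at 0.22 ± 0.25 and 0.0074 ± 0.23 (SE). PFKFB4 was at 7.07 and 8.21 on the miR-223 arrays, against 6.62 and 8.0 on the control arrays, a difference of 0.33 ± 0.49 (SE). The groups overlapped for all 3 probes. Without control replicate 2 the PFKFB4 difference was 1.02. The PDK1 probe was detected on no array and was not tested.

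Among the hypoxia-induced genes, 13 probes were tested, 4 with a positive and 9 with a negative difference and a median of -0.049. This median turned with the array left out, from -0.20 without control replicate 1 to 0.15 without miR-223 replicate 1. VEGFA encodes the growth factor for blood vessels. On ILMN_2375879 it was at 7.18 and 7.36 on the miR-223 arrays, against 6.94 and 7.12 on the control arrays, a difference of 0.23 ± 0.22 (SE). On the dimmer ILMN_1803882 VEGFA was at 5.28 and 5.30 on the miR-223 arrays, against 5.38 and 5.49 on the control arrays, a difference of -0.15 ± 0.22 (SE). The groups were apart on both probes, in opposite directions. Without background correction the values were 0.14 and -0.048. MXI1, an antagonist of MYC, was at 5.63 and 5.70 on its detected probe on the miR-223 arrays, against 5.37 and 5.49 on the control arrays. Its difference was 0.24 ± 0.22 (SE; limma adjusted p = 0.999), but 0.081 without background correction and 0.14 with offset 50.

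ADM, which encodes the vasodilator peptide adrenomedullin, stood at -0.0013 ± 0.26 (SE). ERO1L (now ERO1A), an oxidase that helps disulfides form in the endoplasmic reticulum, stood at -0.0082 ± 0.22 (SE). The collagen prolyl hydroxylase gene P4HA1 stood at -0.076 ± 0.29 (SE), and the 2 tested probes of P4HA2 at -0.12 ± 0.27 and -0.049 ± 0.22 (SE). KDM3A, a histone demethylase, stood at 0.045 ± 0.26 (SE), and ANKRD37, an ankyrin repeat gene, at -0.17 ± 0.28 (SE). The mitophagy receptor gene BNIP3L stood at -0.20 ± 0.29 and -0.099 ± 0.38 (SE) on its 2 probes, and NDRG1, a stress-response gene, at 0.0046 ± 0.49 (SE). For ADM, ERO1L, P4HA1, P4HA2, KDM3A, ANKRD37, BNIP3L and NDRG1 the groups overlapped on every tested probe.

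Several textbook hypoxia genes gave no level here. CA9, a carbonic anhydrase of the cell surface that is often used as a hypoxia marker, had raw signals of 105.3 and 122.8 units on the miR-223 arrays, against 109.1 and 141.1 on the control arrays. Only control replicate 2 detected it, and it was not tested. BNIP3, a relative of BNIP3L, had raw signals of 120.5 and 136.3 units on the miR-223 arrays, against 103.8 and 125.7 on the control arrays. It was detected on miR-223 replicate 2 only. Both CA12 probes and the EGLN3 probe were detected on no array. A probe that is not detected gives only an upper bound and does not show that the gene is silent.

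Oxygen sensing was read from HIF1A and the prolyl hydroxylase genes EGLN1 and EGLN3. HIF1A on ILMN_2379788 was at 8.66 and 8.20 on the miR-223 arrays, against 8.35 and 8.18 on the control arrays. Its difference was 0.16 ± 0.25 (SE), and -0.066 without miR-223 replicate 1. The 2 other HIF1A probes stood at -0.038 ± 0.26 and 0.20 ± 0.29 (SE), with overlapping groups on all 3. EGLN1 was at 7.30 and 7.29 on the miR-223 arrays, against 7.33 and 7.69 on the control arrays, a difference of -0.22 ± 0.23 (SE). Both miR-223 arrays were just below both control arrays, and EGLN1 did not pass the test.

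Where a gene has several probes, they can lie in different transcripts, so unequal differences among them address isoform use. Among the 18 members with several probes, 13 had at least 2 tested ones. In 6 of the 13 the probes differed in sign. The gap between the highest and the lowest difference within a gene had a median of 0.23 over these 13 genes, against 0.24 over all 3268 genes with several tested probes. The widest gaps were 0.55 in GAPDH, 0.54 in LDHA, 0.52 in PGK1, 0.45 in PGAM1 and 0.38 in VEGFA. In limma's diffSplice test 0 of the 13 passed at an adjusted p under 0.05, with 0% of all genes called, and 0 had an unadjusted p under 0.05, where the share of all genes was 2.36%. The lowest unadjusted p were 0.104 for PGK1 and 0.141 for LDHA. The probe sequences and their places in the transcripts were not analysed here, so no probe is tied to a splice form. GAPDH, LDHA and PGK1 have processed copies in the genome, and how far their probes also read those was not tested.

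**Figure D3:**
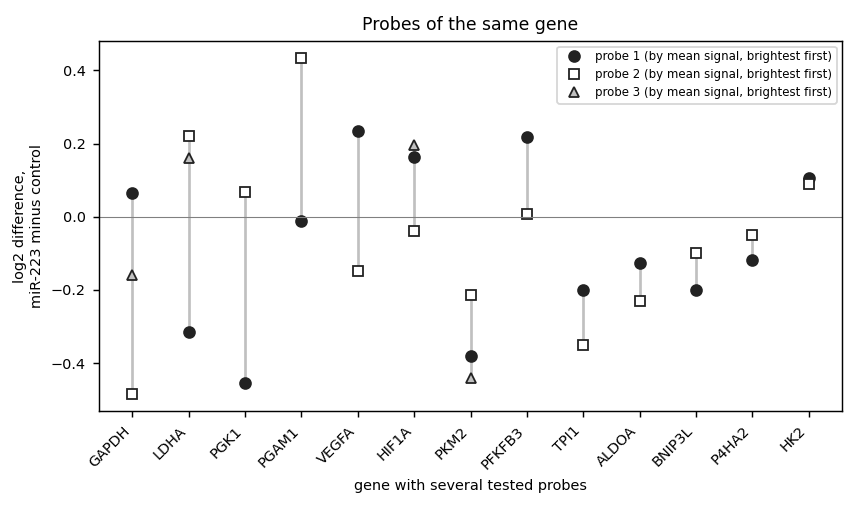
Log2 difference, miR-223 minus control, of every tested probe of the 13 members with several tested probes, ordered by the gap between a gene's probes; a circle marks the brightest probe. The gaps run from 0.55 in GAPDH to 0.018 in HK2.

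Some members were detected on part of their probes. HK1 had 4 probes, of which 1 was detected on 4 arrays, with raw signals of 3169.1 and 2817.3 units on the miR-223 arrays, against 2694.8 and 2651.5 on the control arrays. The other 3 were at 92.7 to 128.5 units, and 2 of them were detected on no array. ALDOA had 2 probes detected on 4 arrays and 2 detected on none. MXI1 had 1 of 4 probes detected on 4 arrays, and PFKL and P4HA1 had 1 of 2. The levels of these genes in OE33 cells were therefore read through some of their probes only.

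Some members differed more between the arrays of 1 group than between the groups. In both groups the array numbered 2 had the higher level of ALDOC, ENO2, PFKFB4 and NDRG1. ALDOC was at 8.88 and 10.09 on miR-223 arrays 1 and 2, against 8.68 and 9.74 on control arrays 1 and 2. ENO2, the neuronal enolase, was at 6.03 and 7.15 on miR-223 arrays 1 and 2, against 5.85 and 7.29 on control arrays 1 and 2. NDRG1 was at 9.49 and 10.41 on miR-223 arrays 1 and 2, against 9.17 and 10.72 on control arrays 1 and 2. With PFKFB4, whose levels are given above, these 4 genes had gaps of 0.92 to 1.54 on the log2 scale in each group. Averaged over the groups, their gaps were 1.28 for ENO2, 1.26 for PFKFB4, 1.23 for NDRG1 and 1.13 for ALDOC. At most 0.252% of all tested probes had a higher mean gap than any 1 of them. Their SE, 0.45 to 0.50, were the widest among the members, where the median SE was 0.23.

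Smaller gaps of the same sign were seen in P4HA1, at 0.57 in miR-223 and 0.59 in control cells, and in the brighter BNIP3L probe, at 0.55 in miR-223 and 0.56 in control cells. The dimmer BNIP3L probe had gaps of 0.013 in miR-223 and 1.27 in control cells. HIF1A had gaps of the opposite sign on all 3 probes, from -0.46 to -0.33 in miR-223 and from -0.64 to -0.17 in control cells. GPI, at -0.68 in miR-223 and -0.17 in control cells, and ADM, at -0.52 in miR-223 and -0.25 in control cells, also lay lower on the arrays numbered 2. Both arrays numbered 2 were above both arrays numbered 1 for 16 of the 51 probes, where the share over all tested probes was 22.2%. They were below for 13 of the 51, where that share was 21.1%. Among the 13 probes of hypoxia-induced genes the counts were 7 above and 2 below. Across the 51 probes, the gap in the miR-223 group and the gap in the control group correlated at r = 0.73, against 0.35 over all 18629 tested probes. Without ENO2, PFKFB4, NDRG1 and ALDOC, left out after their values were seen, r was 0.49. These are descriptions of 2 pairs of arrays that share a number, and what sets the arrays apart was not tested.

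**Figure D4:**
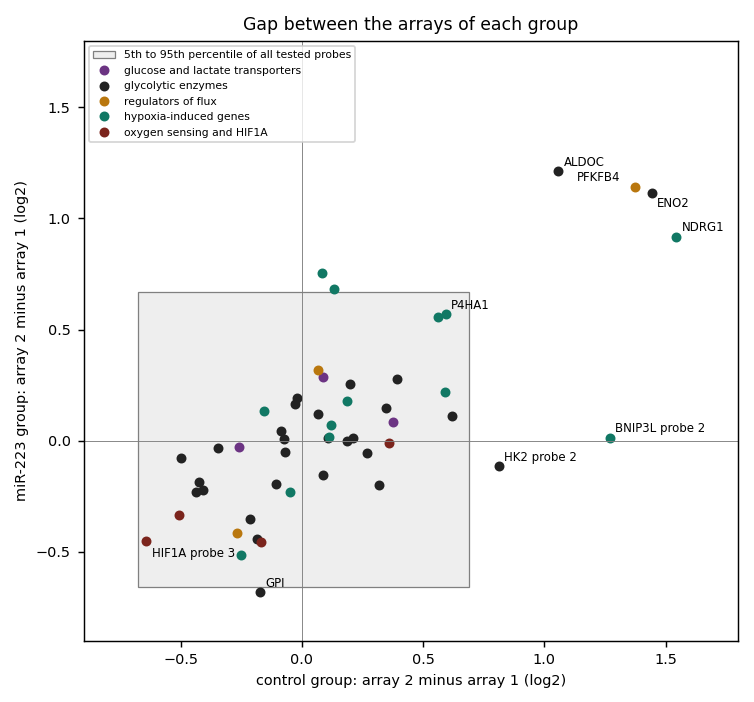
Gap between array 2 and array 1 of the miR-223 group (vertical) and of the control group (horizontal) on the log2 scale, a point for each of the 51 tested probes, coloured by role; the shaded box spans the 5th to the 95th percentile of all tested probes in each group. ALDOC, PFKFB4, ENO2 and NDRG1 stand outside the box in both groups.

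The promoters of ALDOC, ENO2 and PFKFB4 are printed as examples, picked after the wide gaps of these genes between arrays were seen. Whether the marked matches bear on those gaps was not tested. They are the 250 bases before the annotated start (RefSeq, GRCh38.p14), read 5′ to 3′ on the strand of the gene. Capitals mark ACGTG or GCGTG, the core of the hypoxia response element, on either strand (CACGT and CACGC as printed). The palindrome CACGTG counts once on each strand.
ALDOC, chr17:28576896-28577145, minus strand: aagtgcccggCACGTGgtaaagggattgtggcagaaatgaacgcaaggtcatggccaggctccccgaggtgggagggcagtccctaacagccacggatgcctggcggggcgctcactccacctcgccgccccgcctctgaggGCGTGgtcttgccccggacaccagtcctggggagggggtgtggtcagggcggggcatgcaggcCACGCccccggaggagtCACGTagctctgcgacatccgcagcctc
ENO2, chr12:6914330-6914579, plus strand: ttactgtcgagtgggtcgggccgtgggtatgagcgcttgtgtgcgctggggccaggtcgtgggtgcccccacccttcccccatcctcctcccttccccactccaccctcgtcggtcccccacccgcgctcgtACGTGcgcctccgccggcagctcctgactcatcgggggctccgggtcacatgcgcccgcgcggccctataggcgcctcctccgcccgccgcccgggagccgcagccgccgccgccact
PFKFB4, chr3:48556804-48557053, minus strand: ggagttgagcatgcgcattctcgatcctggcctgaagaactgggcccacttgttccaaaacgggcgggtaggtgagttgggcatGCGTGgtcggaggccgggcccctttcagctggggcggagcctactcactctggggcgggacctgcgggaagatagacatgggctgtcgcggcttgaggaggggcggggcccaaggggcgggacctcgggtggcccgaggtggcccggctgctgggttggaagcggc

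ALDOC held 5 such matches, and ENO2 and PFKFB4 1 each. In windows of 300 bases, from 250 before to 50 after a start, 44 of the 65 windows of 35 members held a match, or 67.7%, against 48.4% of all 35116 windows. At least 2 matches were found in 30.8% of the member windows, against 23.1% of all windows. The members without a match in any window were EGLN3, P4HA2 and PGAM1. The members were listed as glycolysis and hypoxia response genes, so their higher share is no finding of these arrays. A gene with several windows counts several times, such as HK1 and PFKM with 7 each. A match of 5 letters is frequent and is a description of the sequence, not a binding site. The promoter set used here held no window for SLC2A3, VEGFA, NDRG1 and BNIP3L.

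Beyond the members, 5 further lists of the same pathways were each read on the brightest tested probe of a gene, and no gene passed limma after adjustment. At an unadjusted p under 0.05, 2 of 64 tested genes were lower and 0 higher, or 3.12%, where the share over all tested probes was 5.46%. Over all 89 tested probes of these lists, 2 were lower and 2 higher. Of 9 tested genes among the other glycolysis genes, 3 had a positive and 6 a negative difference. PFKFB2, a further kinase of the phosphofructokinase activator, was at 5.82 and 5.63 on the miR-223 arrays, against 6.29 and 6.24 on the control arrays, a difference of -0.55 ± 0.22 (SE; limma adjusted p = 0.909). ADPGK, an ADP-dependent glucokinase, stood at 0.47 ± 0.21 (SE). Of 14 HIF regulators, 8 were positive and 6 negative. SIAH1, a ubiquitin ligase that acts on the prolyl hydroxylases, stood at -0.52 ± 0.22 (SE; limma adjusted p = 0.909) on its brightest probe and at -0.36, 0.38 and -0.069 on 3 others. EPAS1, which encodes HIF-2 alpha, stood at -0.41 ± 0.22 (SE).

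Of 19 further hypoxia-induced genes, 8 were positive and 11 negative, with a median of -0.10. IGFBP3, an IGF-binding protein gene, stood at 0.46 ± 0.23 and 0.58 ± 0.23 (SE) on its 2 probes. The second IGFBP3 probe is 1 of the 2 higher ones (limma adjusted p = 0.909). WSB1, a ubiquitin ligase subunit, stood at -0.39 ± 0.24 (SE) on its brightest probe, with 2 others at 0.051 and 0.048. Of 14 genes for the fate of pyruvate and lactate and for gluconeogenesis, 10 were positive and 4 negative. Over all 18629 tested probes, 9408 were positive. PDK2, a further pyruvate dehydrogenase kinase, was detected on both miR-223 arrays and on no control array, at 5.34 and 5.46 on the miR-223 arrays, against 5.04 and 5.02 on the control arrays. Its difference was 0.37 ± 0.22 (SE), with a limma adjusted p of 0.958. PDK2 passed the detection filter only through the miR-223 arrays, so this difference is no support for a change. The same holds for its place among the 10 positive genes. The brightest probe of PCK2, the mitochondrial phosphoenolpyruvate carboxykinase, stood at -0.32 ± 0.36 (SE). Its dim second probe, the other higher one, was at 5.46 and 5.74 on the miR-223 arrays, against 4.61 and 5.18 on the control arrays, a difference of 0.70 ± 0.27 (SE; limma adjusted p = 0.909), and only 1 control array detected it. MPC2, a subunit of the mitochondrial pyruvate carrier (BRP44 in the file), stood at 0.25 ± 0.22 (SE). Of 8 pentose phosphate genes 7 were positive. The widest were TKT, a transketolase, at 0.16 ± 0.23 and PGD, a dehydrogenase of the pathway, at -0.13 ± 0.22 (SE).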

How the data were processed

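Messenger RNA was measured on 4 Illumina HumanHT-12 v4 arrays, 2 for each group, grouped and numbered by their titles. The deposited signals hold, per the file headers, a mean bead intensity with its bead standard error, a bead count and a p-value of detection for every probe on each array. The authors' value table holds quantile normalized intensity values, and their deposited table per gene holds log2 levels and a log2 fold change. Per the submitters' processing notes, GenomeStudio, BeadStudio and Partek were used; versions and roles are not given in the sources used here.

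Background was corrected by normexp on negative controls inferred from the detection p-values (offset 16), followed by quantile normalization and log2 (limma 3.58.1, R 4.3.3). The probes that 2 or more arrays detected were tested with lmFit and eBayes, group as the only term, two-sided, Benjamini-Hochberg over 18629 probes. Prior degrees of freedom were 6.21, residual ones 2. Unequal change among probes of a gene was tested with diffSplice over 3268 genes, leaving out 54 probes whose symbol is held as a date. The scripts were tested on simulated data. Correction with a small offset widens differences of dim probes.

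Described in full were the 12 member probes of lowest p, the 5 genes whose probes differed most, and HIF1A, GAPDH, LDHA, PKM2, VEGFA and CA9. Each further list adds its 2 genes of lowest p. The second probes of IGFBP3 and PCK2 and the genes of wide spread were chosen after their values were seen. Members and lists were chosen with earlier results of these data known. All 39 names matched RefSeq genes, 36 as current symbols and 3 as synonyms. Alternatives covered background, normalization, offset, filter, variance model, replicate block and each array left out.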

Additional observations from a re-analysis of the deposited data

How the results depend on the processing

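The adjusted count of member probes was 0 in limma in all 13 alternatives run, as was the diffSplice count of member genes, while at an unadjusted p under 0.05 the main count was 0. Over all tested probes the adjusted count was 1 without control replicate 2 and 0 otherwise. The unadjusted member count was 7 of 51 without background correction (5.53% over all probes) and 7 of 51 on the authors' values (5.52%). Without the filter on dim probes it was 7 of 69, where the share over all probes was 5.5%. The count was 5 of 51 with a robust variance trend (5.06% over all probes) and 4 of 51 with offset 50 (5.04%). With median scaling (4.11%) and with cyclic loess (5.45%) it was 0 of 51. With detection on all 4 arrays it was 1 of 51, where the share over all probes was 5.18%. With single arrays removed, BNIP3L stood at -0.73 without control replicate 1, PFKFB4 at 1.02 without control replicate 2 and ALDOC at 0.89 without miR-223 replicate 1. Without background correction the 7 counted were probes of GAPDH, PGK1, PKM2, PGAM1, TPI1, PFKM and LDHA. Same-numbered arrays' deviations from their group means correlated at 0.352 over all probes, but no label ties same-numbered arrays to 1 experiment. With the replicate block the unadjusted member count was 3 of 51 and that of the further lists 4, with 0 adjusted calls, but the share over all probes was 10.3%, against 5.46% without the block. The count of further-list genes was 2 of 64 at first, where the share over all probes was 5.46%. It was 5 of 64 without background correction (5.53% over all probes) and on the authors' values (5.52%). It was 0 of 64 with median scaling (4.11%) and 1 of 64 with cyclic loess (5.45%). Without the filter, where undetected genes were also tested, it was 8, with the share over all probes at 5.5%.

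Leaving out 1 array moved the medians: from -0.084 to 0.0085 for all members, from -0.13 to -0.025 for glycolytic enzymes, from -0.15 to 0.17 for regulators of flux, from -0.20 to 0.15 for hypoxia-induced genes and from -0.016 to 0.10 for transporters. For oxygen sensing and HIF1A the range was -0.14 to 0.26, and the median was -0.038 without the filter. The enzyme median was 0.025 with median scaling, -0.0091 without background correction and on the authors' values, -0.0043 with cyclic loess and -0.0049 with offset 50. Of the 18 probes described in full, 15 kept their sign in every alternative. PGK1 ILMN_2216852 turned to -0.033 without control replicate 1 and -0.061 without miR-223 replicate 2. PGAM1 ILMN_2112417 turned to 0.027 with median scaling, 0.20 without control replicate 1 and 0.082 without miR-223 replicate 2, and reached -0.22 without control replicate 2. GAPDH ILMN_2038778 was 0.022 without control replicate 2 and 0.11 without control replicate 1. HIF1A ILMN_2379788 turned to -0.066 without miR-223 replicate 1 and was 0.39 without miR-223 replicate 2. The causes were not tested. The correlation of the gaps between arrays was 0.72 to 0.74 under the other processing choices.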

Other observations

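Outside the members, other genes that HIF is known to induce also lay higher on array 2 in both groups. They were picked after their values were seen, and the gap was not tested. DDIT4, an inhibitor of mTORC1 signalling, was at 8.67 and 10.10 on miR-223 arrays 1 and 2, against 8.90 and 10.26 on control arrays 1 and 2. ANGPTL4, a secreted regulator of lipoprotein lipase, was at 6.66 and 8.31 on miR-223 arrays 1 and 2, against 6.45 and 7.77 on control arrays 1 and 2, on its brightest probe. Its second probe had a gap of 0.86 in miR-223 cells but -0.32 in control cells. VLDLR, a lipoprotein receptor gene, had gaps of 0.80 in miR-223 cells and 1.07 in control cells. Over the 19 tested genes of that list, 9 were higher on array 2 in both groups. The share of all tested probes that did so was not counted here. The median gap of the list was 0.20 in miR-223 cells and 0.14 in control cells, against 0.0022 and 0.0082 over all tested probes.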
